A study of Mus musculus with 9 samples.

Results

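The 2′-5′ oligoadenylate synthetase (Oas) family was described in intestinal organoids, epithelial cultures grown from mouse small intestinal crypts, through the 7 members Oas1a, Oas1b, Oas1g, Oas2, Oas3, Oasl1 and Oasl2. Members were chosen by gene symbol and matched to the Ensembl identifiers of the deposited tables, which list 54838 genes. A further 5 Oas1 paralogs were followed beside them. All organoids carried floxed Mettl3 alleles and a tamoxifen-inducible Cre (Vil-CreERT2;Mettl3 fl/fl), and the labels give C57BL/6 as the background. The Cre is driven by the villin promoter, which is active in intestinal epithelium. Cultures received ethanol (EtOH, the vehicle) or 4-hydroxytamoxifen (4-OHT), which activates the Cre, and then DMSO or necrostatin-1 (Nec-1), an inhibitor of the kinase RIPK1. Bulk RNA-seq gave 7 libraries, 2 for each of 3 groups (4-OHT DMSO, EtOH Nec-1, EtOH DMSO) and a single one for 4-OHT Nec-1. The labels give no dose, time or animal, and no group received 4-OHT without the Cre. The labels do not say whether libraries of a group came from separate cultures, so p-values measure the spread between these libraries, which may be technical.

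OAS enzymes bind double-stranded RNA and make short 2′-5′-linked oligoadenylates (2-5A), a second messenger of antiviral defence. The genes are classical interferon-stimulated genes, and their promoters can carry an interferon-stimulated response element (ISRE), a site bound by interferon regulatory factors, IRF9 among them. In the intestinal epithelium both type I and type III interferons can induce them. Mouse Oas1a and Oas1g encode small active synthetases, and Oas2 and Oas3 larger proteins built of repeated OAS units. Oas1b is the gene of flavivirus resistance in mice and is annotated as a transcribed pseudogene in the C57BL/6J reference. Oasl1 and Oasl2 carry ubiquitin-like domains, and OASL1 lacks synthetase activity and is known to limit the translation of Irf7.

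Values are FPKM, fragments scaled to transcript length and to the mapped fragments of the library, so that levels can be compared between genes. The sum of FPKM ranged from 450207 to 498712, and between 11559 and 12038 genes had 1 FPKM or more. The fragment counts are unknown. The commonest ratio among low values gave estimated depths of 0.853 to 1.03 times that of EtOH DMSO replicate 1. In each other library only 36 to 85 genes, of 1394 to 2189 used, had that ratio. The 7 epithelial markers were each at 1 FPKM or more in every library, with sums of 2659 to 3441 FPKM. The 8 leukocyte markers summed to 1.33 to 2.69 FPKM in the 4 EtOH libraries, to 0.632 and 1.00 in 4-OHT DMSO, and to 1.52 for 4-OHT Nec-1. Itgam was the highest of them in every library, at 1.19 to 2.45 FPKM in EtOH libraries. It was at 0.315 and 0.917 FPKM in 4-OHT DMSO and at 1.31 in 4-OHT Nec-1. Between 2 and 5 of the 8 were listed at 0 in each library, and Ptprc, which marks all leukocytes, was at most at 0.0497 FPKM. The 7 fibroblast and endothelial markers summed to at most 0.211 FPKM. Mettl3, the targeted gene, was at 2.70 and 2.71 FPKM in EtOH DMSO and at 3.72 and 4.14 in the libraries labelled 4-OHT DMSO. Its value covers the whole gene, so excision cannot be read from it, and every direction below rests on the labels. In bulk RNA, fewer cells that express a gene and less RNA per cell cannot be told apart.

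The members were expressed at very different levels in EtOH DMSO organoids, and their order changed with 4-OHT. Oasl1 (ENSMUSG00000041827) was the highest member in EtOH DMSO, at 13.2 and 16.3 FPKM. Oas1a (ENSMUSG00000052776) followed at 3.71 and 3.81 FPKM, and Oas1g (ENSMUSG00000066861) at 1.19 and 1.16. Oas1b (ENSMUSG00000029605) was at 0.664 and 0.752 FPKM and Oasl2 (ENSMUSG00000029561) at 0.615 and 0.732, and these neighbours overlapped. Oas2 (ENSMUSG00000032690) and Oas3 (ENSMUSG00000032661) were far below the other members. Oas2 was at 0.0226 and 0.0219 FPKM in EtOH DMSO, and EtOH Nec-1 had 0.0132 and 0.0249, and Oas3 lay between 0.0235 and 0.0284 in these 4 libraries. Scaled for the estimated depth, the 4 values of Oas2 were 2.00, 2.00, 1.00 and 2.00 times the smallest of them, as values resting on very few fragments would be. No ratio to an EtOH group is therefore given for Oas2 or Oas3.

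**Figure D1:**
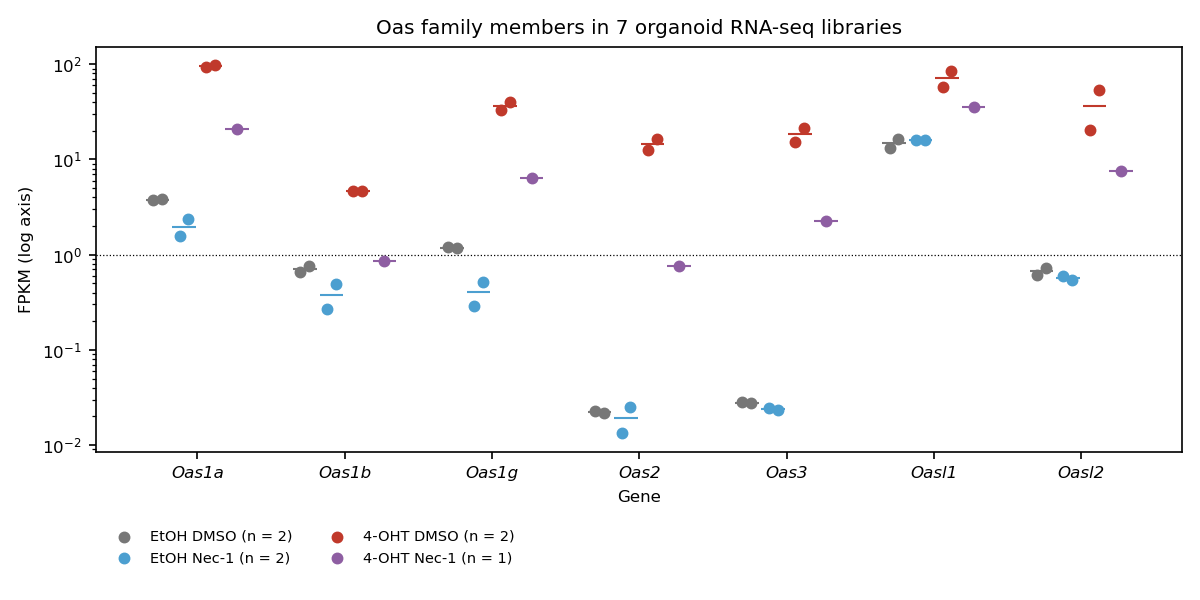
FPKM of the 7 members on a log axis, with each point a library, each short line the mean of a group and the dotted line 1 FPKM. For every member the 4-OHT DMSO libraries lie above the 4 EtOH libraries and the 4-OHT Nec-1 library lies between them.

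In the libraries labelled 4-OHT DMSO, Oas1a was the highest member, at 94.5 and 97.2 FPKM. Oasl1 came next at 57.1 and 85.5 FPKM. Oasl2, at 20.3 and 53.2 FPKM, overlapped with Oas1g, at 32.8 and 40.2. Oas3 was at 15.3 and 21.4 FPKM and overlapped with Oas2, at 12.7 and 16.2, and Oas1b was the lowest member at 4.64 and 4.61. In EtOH Nec-1, Oas1g and Oas1b overlapped, as did Oas3 and Oas2, and Oasl1 was again the highest member. The 4-OHT DMSO replicates of Oas1a and Oas1b were nearly equal, while those of Oasl2 were far apart, with replicate 2 the higher.

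The 12 Oas genes of the mouse lie in 2 clusters of chromosome 5 (GRCm38.p6). Oasl2 and Oasl1 lie within 41.0 kb, at chr5:114896926-114937911, and the other 10 genes within 191 kb, at chr5:120730333-120921648. Promoters from RefSeq (GRCm38.p6, 250 bases before to 50 after the start of transcription) were available for 8 of the 12 genes, 5 of them members. They were searched on both strands for the ISRE core, GAAA followed by any 2 bases and GAAA again, which 3.44% of all 32851 promoters hold, and for the interferon gamma-activated site, TTC and GAA with any 3 bases between, which 8.30% hold. The ISRE core was present in Oas1a, Oas1g, Oas3 and Oas1c, and the second motif in Oas1a alone. Neither was found in these windows of Oasl1, Oasl2, Oas1f and Oas1h. The last 120 bases before the start are shown for the 4 promoters with an ISRE core, each 5′ to 3′ on the minus strand with the core in capitals, because they show where the core lies in each gene. In Oas1a (chr5:120907526-120907645), Oas1g (chr5:120887614-120887733) and Oas1c (chr5:120812515-120812634) 2 cores overlap, and Oas3 (chr5:120777660-120777779) has 1.
Oas1a: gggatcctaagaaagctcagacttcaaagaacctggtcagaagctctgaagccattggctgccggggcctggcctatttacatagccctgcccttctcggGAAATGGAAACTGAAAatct
Oas1g: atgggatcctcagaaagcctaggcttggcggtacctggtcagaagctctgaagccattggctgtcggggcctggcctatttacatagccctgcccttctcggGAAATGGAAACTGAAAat
Oas3: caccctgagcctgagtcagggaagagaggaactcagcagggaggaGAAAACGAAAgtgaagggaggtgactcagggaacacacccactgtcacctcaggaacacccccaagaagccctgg
Oas1c: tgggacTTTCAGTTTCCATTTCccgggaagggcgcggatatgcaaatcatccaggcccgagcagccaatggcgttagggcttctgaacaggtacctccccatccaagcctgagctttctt

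Counting the base before the start as -1, the last base of the core lay at -5 in Oas1a, -3 in Oas1g and -66 in Oas3, and Oas1c carried its cores in reverse, ending at -99. The 5′ end of the Oas1c stretch, near these cores, borders the annotated span of the member Oas1b (chr5:120812635-120824163). No promoter was available for Oas1b, so these cores cannot be assigned to Oas1c alone. The annotated genes reach 19, 25 and 26 bases into the stretches of Oas1a, Oas3 and Oas1c, since some transcripts start farther upstream. In Oas1a these 19 bases hold all but the first base of its overlapping cores, which run from -20 to -5. The annotated Oas1g gene does not reach into its stretch. Among the promoters without a core, the gene covers 97 of the same 120 bases in Oasl1 and 8 in Oasl2. For Oasl1 in particular, the window thus holds fewer bases before the outermost start. Over the 250 bases before the start, the promoters of Oas1a and Oas1g were identical at 84.8% of bases, the highest identity among the 8 promoters. Genes this alike can share fragments, and the kit's strandedness is not stated, so values of Oas1a, Oas1g and the other Oas1 genes may include fragments of a paralog or of a neighbour on the other strand. A motif match is a description of the sequence and does not show binding.

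Whether the family differed between organoids labelled 4-OHT DMSO and EtOH DMSO was asked first. All 7 members rose with 4-OHT, where 24.5% of the 12702 genes tested rose (limma on log2(FPKM + 1), Benjamini-Hochberg adjusted p under 0.05). Of the members, 4 reached the minimum for testing, 1 FPKM in 2 libraries, through the 4-OHT DMSO libraries. Without that minimum, all 7 rose as well, against 9.68% of 28195 genes. In linear terms, the mean FPKM was 54.6-fold higher for Oasl2, 31.0-fold for Oas1g, 25.5-fold for Oas1a, 6.53-fold for Oas1b and 4.82-fold for Oasl1.

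Oas1a, Oas1g, Oas2 and Oas3 had similar log2 fold changes on the log2(FPKM + 1) scale, but not with a smaller pseudocount. Oas1a rose by 4.35 (standard error 0.14, limma adjusted p = 0.000256) and Oas1g by 4.10 (standard error 0.14, limma adjusted p = 0.000256). Oas2 rose by 3.91 (standard error 0.15, limma adjusted p = 0.000256) and Oas3 by 4.22 (standard error 0.17, limma adjusted p = 0.000275). The log2 fold changes are understated for genes near 0. For Oas2 and Oas3, the EtOH libraries near 0 also have almost no spread on this scale. The pooled standard errors and p-values of Oas2 and Oas3 may thus be too small for the 4-OHT libraries. With a pseudocount of 0.1 the log2 fold changes were 4.63 for Oas1a, 4.83 for Oas1g, 6.89 for Oas2 and 7.15 for Oas3. The Oasl genes differed from each other in size. Oasl2 rose by 4.35 (standard error 0.42, limma adjusted p = 0.00149) and Oasl1, which was already well expressed in EtOH organoids, by 2.17 (standard error 0.21, limma adjusted p = 0.00145). Without 4-OHT DMSO replicate 2 the value of Oasl2 was 3.67, and without replicate 1 it was 5.02. Oas1b rose by 1.72 (standard error 0.13, limma adjusted p = 0.000822), the smallest of the 7 changes on this scale. With a pseudocount of 0.1 it rose by 2.55 and Oasl1, then the smallest, by 2.24.

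**Figure D2:**
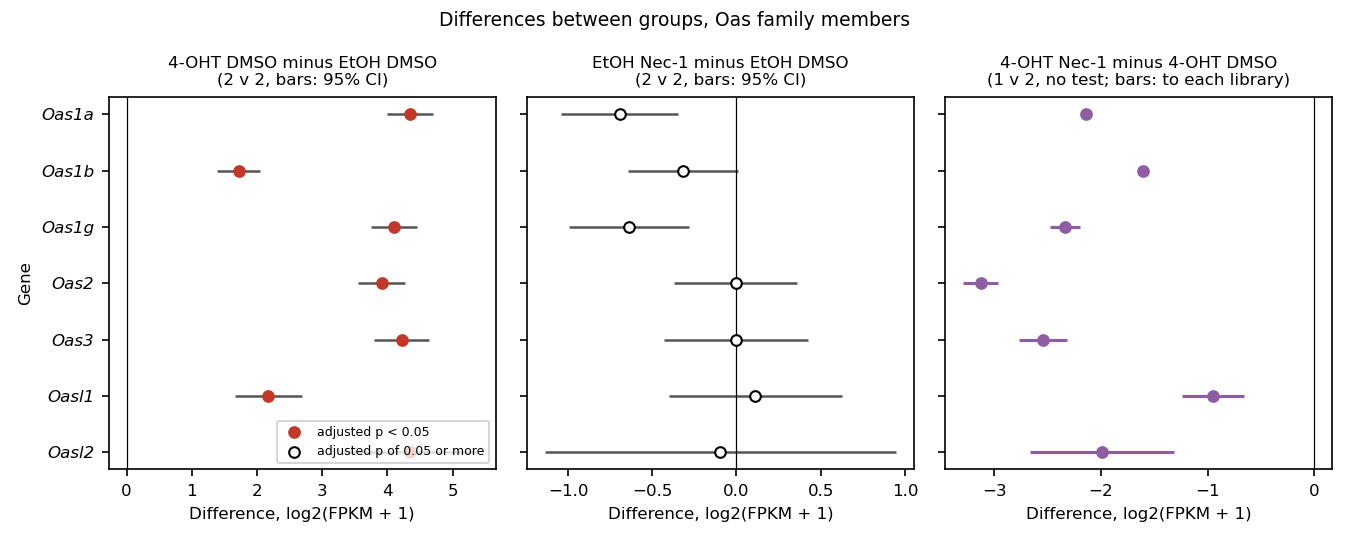
Differences between groups in log2(FPKM + 1) for the 7 members, with 95% confidence intervals of limma in the left and middle panels and the differences from each 4-OHT DMSO library in the right panel. With 4-OHT the 7 members rose by 1.72 to 4.35, with Nec-1 in EtOH organoids no member passed the threshold, and the 4-OHT Nec-1 library lay below the 4-OHT DMSO mean by log2 differences of -0.95 to -3.13. The 3 horizontal axes have different ranges.

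The makeup of the family changed together with its amount. The summed FPKM of the 7 members was 19.5 and 22.9 in EtOH DMSO and stayed near this with Nec-1 (18.9 and 19.8). It was 237 and 318 in 4-OHT DMSO, while 4-OHT Nec-1 had 74.5. Oasl1 made up 68.0% and 71.5% of this sum in EtOH DMSO, and with Nec-1 85.3% and 80.1%. Its share was 24.1% and 26.9% in 4-OHT DMSO, and 4-OHT Nec-1 lay between with 47.9%. Oasl1 was thus most of the family sum in the 4 EtOH libraries and less in the 3 others. Oas1a went the other way, with 19.1% and 16.7% in EtOH DMSO and 8.37% and 11.9% once Nec-1 was added. In 4-OHT DMSO its share was 39.8% and 30.5%, and 4-OHT Nec-1 had 28.1%. Oas2 and Oas3 together were under 1% in each EtOH library, and in 4-OHT DMSO Oas2 reached 5.35% and 5.10% and Oas3 6.45% and 6.72%. Ratios between members differed in their stability. Oas1a was 2.42 to 5.46 times as high as Oas1g in all 7 libraries. It was 4.84 to 5.94 times as high as Oas1b in the EtOH libraries and 20.4 to 24.6 times in those labelled 4-OHT. Oasl1 was 21.5 to 29.4 times as high as Oasl2 in EtOH libraries and 1.61 to 4.72 times in 4-OHT libraries.

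**Figure D3:**
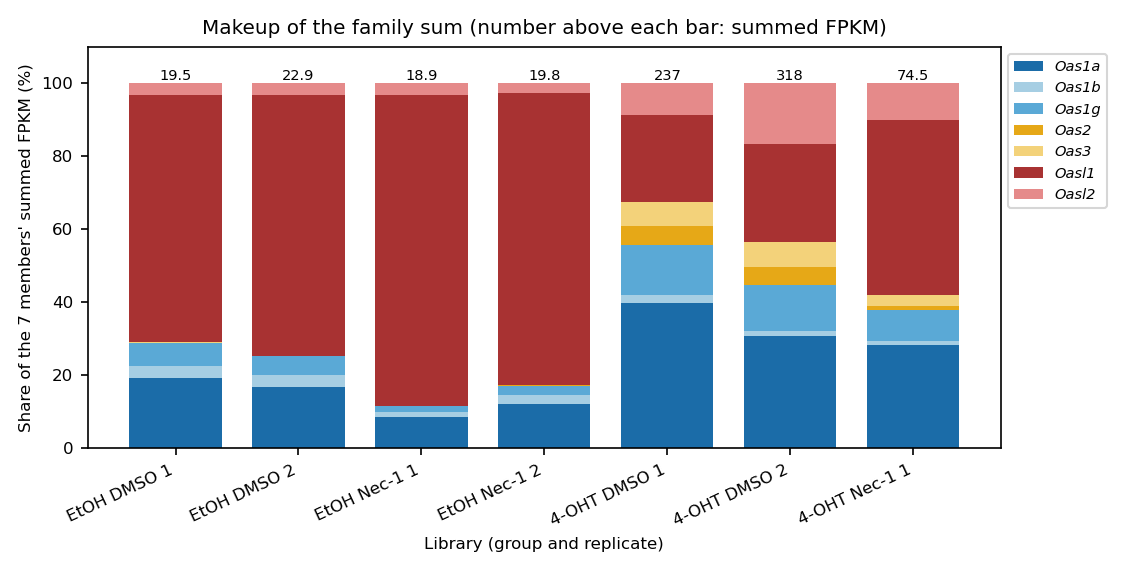
Share of each member in the summed FPKM of the 7 members (stacked bars, percent) in each library, with the sum in FPKM above the bar. Oasl1 takes 68.0% to 85.3% of the sum in EtOH libraries and 24.1% to 47.9% in libraries labelled 4-OHT.

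Whether Nec-1 alone altered the family was asked in EtOH organoids. No member passed the threshold, and 28 of 12702 genes (0.22%) did. Oas1a was at 1.58 and 2.36 FPKM in EtOH Nec-1, below both EtOH DMSO libraries, with a log2 difference of -0.69 (95% confidence interval -1.04 to -0.35, limma adjusted p = 0.183). Oas1g, at 0.289 and 0.519 FPKM, gave -0.64 (95% confidence interval -0.99 to -0.28, limma adjusted p = 0.210). These 2 members had an unadjusted p under 0.05 and were lower, as did 10.4% of genes tested. Oas1b, at 0.266 and 0.488 FPKM, also lay below both EtOH DMSO libraries, with a log2 difference of -0.32 (95% confidence interval -0.64 to 0.011). These sizes depend on the pseudocount, and with 0.1 in place of 1 the log2 difference was -1.38 for Oas1g and -0.80 for Oas1b, with limma adjusted p of 0.164 and 0.343. In all, both EtOH Nec-1 libraries lay below both EtOH DMSO libraries in 5 of 7 members and in 39.1% of all genes tested. Oasl1 was at 16.1 and 15.9 FPKM with Nec-1, inside the range of EtOH DMSO (log2 difference 0.11, 95% confidence interval -0.40 to 0.63). For Oasl2, at 0.591 and 0.541 FPKM, the interval was -1.14 to 0.95. It was under 1 FPKM in EtOH DMSO, so a fall of 1 log2 unit is impossible on the log2(FPKM + 1) scale. The interval uses a spread pooled over all groups, and the 4-OHT DMSO replicates of Oasl2 were far apart.

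In the single 4-OHT Nec-1 library, every member lay below both 4-OHT DMSO libraries and above all 4 EtOH libraries, a position that 19.2% of the 12702 genes shared. With 1 library there is no replicate check, and a gene counted only if each library of the other group was 1 log2 unit or more away. Of the 7 members 6 were counted as lower than in 4-OHT DMSO, against 1.21% of 12036 genes. Oas1b and Oas2 reached the minimum, a mean of 1 FPKM, through the 4-OHT DMSO libraries. Without the minimum, 6 members were counted as well, against 0.573% of 25493 genes. Both comparisons with 4-OHT DMSO use the same 2 libraries. Oas2 was at 0.758 FPKM, 19.1-fold below the 4-OHT DMSO mean (log2 difference -3.13, and -2.96 and -3.29 from each library). Oas3 was at 2.28 FPKM, 8.04-fold below (log2 difference -2.54). Among the small synthetases, Oas1g was at 6.39 FPKM (5.71-fold, log2 difference -2.34) and Oas1a at 21.0 FPKM (4.57-fold, log2 difference -2.14). Oas1b, at 0.853 FPKM, was 5.42-fold below (log2 difference -1.60). Members that were lowest in EtOH organoids, Oas2 and Oas3, thus lay farthest below 4-OHT DMSO.

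The Oasl genes lay nearer to the 4-OHT DMSO libraries, or had wider ranges. Oasl2 was at 7.57 FPKM, with a log2 difference of -1.32 from replicate 1 and -2.66 from replicate 2. Oasl1 was at 35.7 FPKM, 2.00-fold below the mean, with log2 differences of -0.66 and -1.24, and was the member not counted. The minimum for limma, 1 FPKM in 2 libraries, was reached by Oas1b, Oas2, Oas3 and Oasl2 only through the 4-OHT DMSO libraries. For these members, being lower than 4-OHT DMSO is thus partly built into the choice of genes tested. The very low EtOH values of Oas2 and Oas3 also add almost no spread to the pooled limma estimate, so their p-values may be too small. Where limma was applied to this contrast, assuming that the lone library varies like the other groups, 5 members passed the threshold as lower (adjusted p of 0.00484 to 0.0162), against 1.02% of the 12702 genes tested, and Oasl2 (limma adjusted p = 0.159) and Oasl1 (limma adjusted p = 0.171) did not.

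The same library was set against the EtOH Nec-1 libraries, again without a test. The 4 members that averaged 1 FPKM or more over these 3 libraries were all counted as higher, against 4.24% of 11746 genes. Oas1g and Oasl2 were under 1 FPKM in both EtOH Nec-1 libraries and reached this mean through the 4-OHT Nec-1 library alone. Without the minimum, 5 of 7 members were counted, the additional one being Oas3, against 2.11% of 25372 genes. The log2 difference was 2.90 for Oas1a, 2.40 for Oas1g, 2.45 for Oasl2 and 1.11 for Oasl1. In FPKM this was 15.8-fold for Oas1g, 13.4-fold for Oasl2, 10.6-fold for Oas1a and 2.23-fold for Oasl1. With each library centred on its median the difference of Oasl1 was 0.98, under the limit of 1. Oas1b, Oas2 and Oas3 had a lower mean and were not compared in this count, and 4-OHT Nec-1 held 0.853, 0.758 and 2.28 FPKM of them where EtOH Nec-1 held at most 0.488, 0.0249 and 0.0247.

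Whether the effect of Nec-1 differed between 4-OHT and EtOH organoids was tested as an interaction, with the same assumption for the lone library. Oas1b, Oas2, Oas3 and Oasl2 reached the minimum for testing only through the 4-OHT DMSO libraries. Oas2 and Oas3 were near 0 in EtOH organoids, where a fall with Nec-1 could not have shown (log2 differences -0.0045 and -0.0054). Their terms thus nearly repeat their log2 differences from 4-OHT DMSO, -3.13 and -2.54. Values near 0 also add almost no spread to the pooled estimate, so the p-values of Oas2 and Oas3 may be too small. Oas2 passed the threshold (-3.12 log2 units, standard error 0.23, limma adjusted p = 0.0417), as did 0.0551% of genes, 7 of 12702. Under pseudocounts of 0.1 and 0.25 its limma adjusted p was 0.139 and 0.0666, and leaving out an EtOH DMSO or EtOH Nec-1 library gave 0.165 to 0.267. The other 6 members had interaction terms of -1.06 for Oasl1 to -2.54 for Oas3, with limma adjusted p of 0.0708 to 0.529. All 7 terms were negative with an unadjusted p under 0.05, which was so for 4.12% of genes tested. Without 4-OHT DMSO replicate 1, 5 members passed, where 233 genes (1.83%) passed as lower, and without replicate 2, 2 members passed, where 24 genes (0.189%) did.

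Among the genes that limit the 2-5A signal, Pde12, a phosphodiesterase that degrades 2-5A, rose from 4.38 and 4.08 FPKM in EtOH DMSO to 9.998 and 9.02 in 4-OHT DMSO (log2 fold change 1.01, limma adjusted p = 0.00155). In the 4-OHT Nec-1 library Pde12 was at 10.3 FPKM, above both 4-OHT DMSO libraries. Akap7, whose product can also cleave 2-5A, fell from 15.6 and 14.1 to 11.1 and 10.7 FPKM (log2 fold change -0.42, limma adjusted p = 0.0142). For Abce1, a ribosome recycling factor, the log2 difference was -0.059 (95% confidence interval -0.24 to 0.12).

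The 5 other Oas1 paralogs were low. Oas1c rose from 0.662 and 0.303 FPKM in EtOH DMSO to 2.96 and 3.88 in 4-OHT DMSO (log2 fold change 1.58, limma adjusted p = 0.00301), and was at 1.16 FPKM in 4-OHT Nec-1. It was the only one of the 5 to reach 1 FPKM in 2 libraries, the minimum for testing. Oas1c was under 1 FPKM in every EtOH library, so it met this minimum only through the 4-OHT DMSO libraries. Oas1f and Oas1h stayed below 0.6 FPKM in all libraries, with their highest values, 0.463 and 0.591, in 4-OHT DMSO replicate 2. Oas1d was above 0 in 2 libraries, at 0.0481 and 0.0801 FPKM, and Oas1e was listed at 0 in all 7.

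The family stood beside other genes of RNA sensing and interferon signalling, from lists that were set with earlier results of these data known. Of 9 nucleic acid sensing genes, 8 rose with 4-OHT and 1, Mavs, did not pass, with a median log2 fold change of 1.56 beside 4.10 for the 7 members and 0.077 for all genes tested. Zbp1, a sensor of Z-form nucleic acids, rose by 3.26, Dhx58 (LGP2) by 2.54, and Eif2ak2, the kinase PKR that double-stranded RNA also activates, by 1.36 (limma adjusted p of 0.000306 to 0.000497). All 6 genes of interferon transcription and feedback rose, with a median of 1.99. Usp18, which restrains type I interferon receptor signalling, rose by 4.18 and Irf7 by 3.93 (limma adjusted p = 0.000321 for both). Zbp1 and Usp18 reached the minimum for testing only through the 4-OHT DMSO libraries, with at most 0.0805 and 0.178 FPKM in EtOH libraries. Of 6 interferon receptor and kinase genes, Ifnar2 and Ifnlr1 rose, by 0.79 and 0.55 (limma adjusted p of 0.00801 and 0.0276), and 4 did not pass. Among all genes tested 24.5% rose, so the count of the receptor and kinase genes was near that share. The ligand genes Ifnb1, Ifnl2 and Ifnl3 were listed at 0 in all 7 libraries, and of 14 interferon alpha genes 1 was above 0, at 0.0523 FPKM in 4-OHT Nec-1. None of the genes in these lists passed the threshold with Nec-1 in EtOH organoids.

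**Figure D4:**
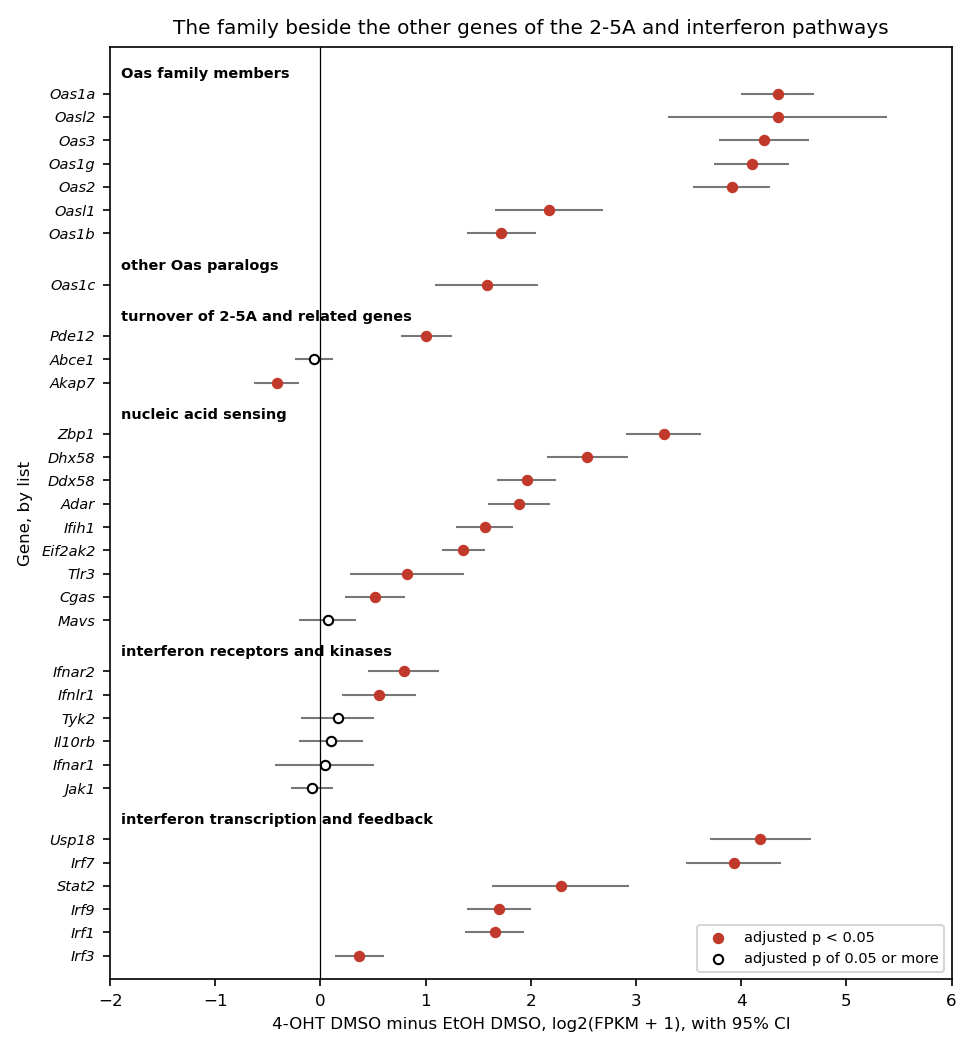
Log2 difference between 4-OHT DMSO and EtOH DMSO with its 95% confidence interval, for the members and for the genes tested in each list. Of the members, 5 lie at 3.91 or above, where Usp18 and Irf7 of the other lists also lie, and Oasl2 has the widest interval of the genes shown.

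In 4-OHT Nec-1, 3 of 9 sensing genes (Zbp1, Dhx58 and Ddx58) and 2 of 6 genes of interferon transcription and feedback (Usp18 and Irf7) were counted as lower than in 4-OHT DMSO, beside 6 of 7 members. The share among all genes compared was 1.21%, and 0.573% without the minimum. Zbp1 reached the minimum through the 4-OHT DMSO libraries, so for it being lower than these is partly built in. Usp18 was at 14.4 and 20.7 FPKM in 4-OHT DMSO and at 1.22 with Nec-1, and Irf7 at 36.0 and 50.2 and at 8.74. Irf9, a DNA-binding factor that recognises the ISRE, was at 7.72 and 8.15 FPKM in 4-OHT DMSO, and 4-OHT Nec-1 exceeded both with 8.56.

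The genes whose pattern over the 7 libraries was nearest to the family were sought among all genes tested. Likeness was the root mean square difference between log2(FPKM + 1), centred on each gene's mean, and the mean of the 7 members. The 5 nearest were Ddx60 (0.117), Irgm1 (0.120), Parp12 (0.140), Cmpk2 (0.145) and Ifi44 (0.156). Ddx60 was at 12.9 and 19.1 FPKM in 4-OHT DMSO, 2.98 in 4-OHT Nec-1 and at most 0.251 in EtOH libraries. Between members, Oas1a and Oas1g were the nearest pair (0.197), and Oas1a and Oas1b the farthest (1.32). Oas1a and Oas1g were each other's nearest gene among all genes. The nearest gene was Usp18 for Oas2 (0.145), Irf7 for Oas3 (0.153), Ifit1 for Oasl2 (0.202), Tnip3 for Oasl1 (0.129) and Ly6d for Oas1b (0.0820). The measure follows the size of a change, so the members with small changes, Oasl1 and Oas1b, fell near genes with small changes.

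**Figure D5:**
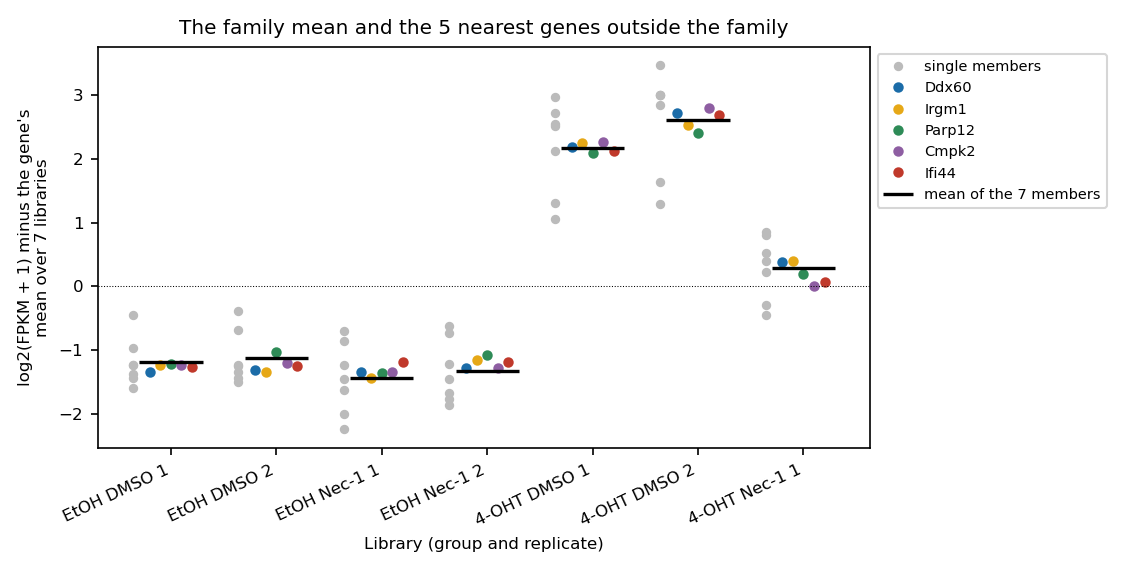
Level in each library as log2(FPKM + 1) minus the gene's mean over the 7 libraries, for single members (grey), their mean (black line) and the 5 nearest genes outside the family (coloured, set side by side within a library). The mean of the members is -1.19 and -1.12 in EtOH DMSO, 2.18 and 2.61 in 4-OHT DMSO, 4-OHT Nec-1 has 0.29, and the 5 genes follow it.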

How the data were processed

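RNA-seq libraries (7) of organoids were analysed, and the 2 Atf3 samples of the series were not analysed here. The authors deposited FPKM per Ensembl gene, and the submitters' processing notes name HISAT2 2.1.0, StringTie 1.3.3b and mm10. One table repeats 2 libraries of other tables, and the repeats were left out. Of 54838 identifiers, 54723 matched a symbol.

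All libraries were fitted in limma 3.58.1 (R 4.3.3) with a trend on log2(FPKM + 1), 1 mean per group, over the 12702 genes that reached 1 FPKM in 2 or more libraries (Benjamini-Hochberg adjusted p, threshold 0.05). Contrasts with the lone 4-OHT Nec-1 library were differences without a test, over genes averaging 1 FPKM or more in the 3 libraries. FPKM are already scaled to depth, and fragment counts are unknown. Python 3.11.15, pandas 2.3.3 and Biopython 1.88 were used for the other values, and scripts were tested on simulated data. Alternatives were 2 pseudocounts, no filter, no trend, 2 scalings, a replicate block, only the 4 libraries compared, and each library left out.

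Genes named are the members, a list of Oas, 2-5A and interferon genes, Mettl3, and the genes nearest to the members. Members and lists were chosen with earlier results of these data known. Some items are not reported here.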

Additional observations from a re-analysis of the deposited data

Results flagged for a closer look

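The change of Oas2 with Nec-1 differed between 4-OHT and EtOH organoids by -3.12 log2 units (limma interaction term, adjusted p = 0.0417). Oas2 was at 12.7 and 16.2 FPKM in 4-OHT DMSO, 0.758 in 4-OHT Nec-1 and at most 0.0249 in the 4 EtOH libraries. With values this near 0, its log2 difference with Nec-1 in EtOH organoids was -0.0045, and a fall there could not have shown. The term therefore nearly repeats the log2 difference of -3.13 between 4-OHT Nec-1 and 4-OHT DMSO. The EtOH values near 0 also add almost no spread to the pooled estimate, so the p-value may be too small. The test assumes that the single 4-OHT Nec-1 library varies like the groups of 2, and over 13 alternatives the limma adjusted p ran from 0.00606 to 0.267.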

How the results depend on the processing

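The 7 members rose with 4-OHT under all 14 alternatives, with 3628 to 5400 genes called. Calls among all genes split into 3117 higher and 2120 lower, into 2213 and 3187 with median centring and into 2232 and 2976 with upper quartile scaling, and centring moved the median log2 difference from 0.077 to -0.080. With Nec-1 in EtOH organoids 0 members were called by limma in any of 14 alternatives, while the 28 genes called became 8 without the filter, 43 with upper quartile scaling, 79 with only the 4 libraries compared, and 9 to 75 with 1 library left out. For the interaction, 7 genes became 219 without the filter and 1 to 337 with 1 library left out, and the 1 member called became 0 with pseudocounts of 0.1 and 0.25, and 0 to 5 with 1 library left out. Against 4-OHT DMSO, the 238 genes counted in 4-OHT Nec-1 became 378 with a pseudocount of 0.1 and 421 to 772 when 1 DMSO library was left out, since the condition then holds for 1 library, and members counted were 5 to 7. Against EtOH Nec-1, 726 genes became 1132 with a pseudocount of 0.1 and 2681 by the limma contrast, and members counted were 3 to 6. The causes of the other changes were not tested.

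Replicates with the same number did not deviate together (r of -0.040, 0.0065 and -0.012 between groups across 12702 genes). With 2 libraries per group, this cannot exclude that they shared a culture, an animal or a batch. With the replicate number as a block, 4697 genes were called for 4-OHT, 19 for Nec-1 in EtOH organoids and 4 for the interaction, where the members called became 0 (Oas2, limma adjusted p = 0.143). The limits are the groups of 2 and 1, values of Oas2 and Oas3 near 0 in EtOH libraries, unknown fragment counts, and paralogs that may share fragments.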
